A study of Mus musculus with 9 samples.

Results

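Noncoding RNAs with nuclear, catalytic or scaffold roles were followed across the mouse aorta, namely Malat1, Neat1, Meg3, H19, Kcnq1ot1, Rn7sk, Rmrp, Rpph1 and Gm26917. They were chosen by name, as 9 of 55453 genes listed, and all 9 were among the 19412 genes with enough counts to be tested. Each of 9 C57BL/6J mice gave 1 library from its whole aorta, and each genotype had 3 mice. Itga8-Cre mice carried Itga8-CreERT2, a recombinase tied to Itga8 (integrin alpha 8) that tamoxifen switches on. Myh11-Cre mice carried Myh11-CreERT2, the inducible recombinase tied to Myh11 (smooth muscle myosin heavy chain) against which the Itga8 line was set. The controls were Wild Type mice; sources used here give neither tamoxifen treatment nor age nor sex. The 3 groups shared the strain and the tissue.

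Malat1 and Neat1 are long RNAs kept in the nucleus: Malat1 gathers in nuclear speckles beside splicing factors, and Neat1 is the scaffold of paraspeckles. Meg3, H19 and Kcnq1ot1 come from imprinted domains, where only the copy inherited from 1 parent is usually active. Rn7sk (7SK) holds the elongation factor P-TEFb in an inactive complex, while Rmrp and Rpph1 are the RNA subunits of the related enzymes RNase MRP, which acts on ribosomal RNA precursors, and RNase P, which trims transfer RNA precursors. RNase P also cuts the 3′ ends of Malat1 and of the long form of Neat1, which then lack a poly(A) tail and end in an A-rich stretch folded into a triple helix. Gm26917 is annotated as a lincRNA.

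These libraries were selected with oligo-dT beads, which bind runs of A, so the runs of A in each RNA are shown. The first set shows the 3 short RNAs made by RNA polymerase III, up to 300 bases of each, 5′ to 3′, from GENCODE M21 transcripts on GRCm38; capitals mark the first of the longest runs of A. The other set shows the tails of Malat1 and of long Neat1.
Rn7sk, last 300 bases: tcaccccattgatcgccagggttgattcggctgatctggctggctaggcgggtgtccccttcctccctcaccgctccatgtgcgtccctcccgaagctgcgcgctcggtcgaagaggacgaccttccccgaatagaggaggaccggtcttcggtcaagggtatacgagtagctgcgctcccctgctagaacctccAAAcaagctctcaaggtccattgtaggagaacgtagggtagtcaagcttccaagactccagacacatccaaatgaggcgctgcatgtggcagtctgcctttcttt
Rmrp, whole: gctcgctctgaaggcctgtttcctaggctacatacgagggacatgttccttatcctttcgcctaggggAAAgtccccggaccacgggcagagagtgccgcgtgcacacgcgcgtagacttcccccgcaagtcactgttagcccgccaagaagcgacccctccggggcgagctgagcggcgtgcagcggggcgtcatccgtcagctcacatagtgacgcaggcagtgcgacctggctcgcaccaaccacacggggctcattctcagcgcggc
Rpph1, first 300 bases: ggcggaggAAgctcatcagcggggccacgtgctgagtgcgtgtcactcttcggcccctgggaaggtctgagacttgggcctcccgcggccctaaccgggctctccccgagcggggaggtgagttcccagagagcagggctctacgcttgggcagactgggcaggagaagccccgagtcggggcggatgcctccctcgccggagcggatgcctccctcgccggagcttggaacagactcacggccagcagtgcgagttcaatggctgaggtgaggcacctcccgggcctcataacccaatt
Malat1, bases 6634 to 6755 with its longest run of A in capitals: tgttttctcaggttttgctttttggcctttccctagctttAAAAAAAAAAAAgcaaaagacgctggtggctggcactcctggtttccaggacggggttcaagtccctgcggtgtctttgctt
Neat1 long form, last 80 bases with the A-rich end in capitals: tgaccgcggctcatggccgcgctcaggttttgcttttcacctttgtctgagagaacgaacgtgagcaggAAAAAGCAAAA

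The longest run of A was 3 bases in Rn7sk (331 bases long) and in Rmrp (271 bases), and 2 bases in Rpph1 (319 bases). Of 141767 annotated transcripts, 12.5% had no run over 3 bases and 2.19% none over 2; among the 5627 transcripts of 250 to 350 bases, 31.0% had none over 3. In Malat1 the run was 12 bases long, a length that 4.07% of all transcripts reach, and the tRNA-like segment that RNase P frees begins shortly after it. Malat1 and long Neat1 share the 11 letters AAAAAGCAAAA, which 0.436% of transcripts hold. Upstream of them they share a run of 16 letters, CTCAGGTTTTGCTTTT, found in 2 of the 141767 transcripts, these 2. Its U-rich part belongs to the same triple helix, and both searches used the transcript strand.

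The other members end differently. AATAAA, the usual signal for poly(A) addition, lay within the last 60 bases of at least 1 annotated transcript of Malat1, Neat1, H19, Meg3 and Kcnq1ot1, and in none of Rn7sk, Rmrp, Rpph1 and Gm26917. The ends are given with the signal in capitals, and that of Gm26917 for contrast.
Neat1 short form: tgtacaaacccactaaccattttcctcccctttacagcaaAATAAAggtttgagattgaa
H19: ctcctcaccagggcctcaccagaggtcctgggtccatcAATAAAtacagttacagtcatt
Meg3: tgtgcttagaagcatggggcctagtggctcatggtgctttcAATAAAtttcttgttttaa
Kcnq1ot1: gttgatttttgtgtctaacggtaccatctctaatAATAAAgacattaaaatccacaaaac
Gm26917: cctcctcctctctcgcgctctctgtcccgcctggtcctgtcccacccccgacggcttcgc
This Gm26917 transcript was 69.1% G and C with 8.3% A, its longest run of A had 4 bases, and 87.5% of all transcripts have a run of 4 or more.

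Together the 9 RNAs took 1.74% (95% exact interval 1.74 to 1.74) to 3.18% (3.17 to 3.18) of a library's counts, lowest in Myh11-Cre 2 and highest in Itga8-Cre 2. These intervals cover counting error only, since PCR copies are not independent molecules. The shares were 2.17%, 3.18% and 2.93% in Itga8-Cre 1 to 3 and 2.02%, 1.74% and 1.77% in Myh11-Cre 1 to 3, against 2.44%, 3.02% and 2.59% in Wild Type 1 to 3. All 3 Myh11-Cre libraries lay below the other 6. Between 95.2% and 97.6% of these counts came from Gm26917, Rn7sk, Malat1 and Rmrp. Library totals ran from 31419238 to 42497543 counts, and genes of the mitochondrial genome took 18.6% to 25.6%. Levels below are in CPM, reads of a gene relative to the library size after scaling by the trimmed mean of M values.

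In CPM the order of mean level over 9 mice was Gm26917, Malat1, Rn7sk, Rmrp, Neat1, Kcnq1ot1, H19, Meg3 and Rpph1, which ranked 6, 8, 11, 37, 162, 1272, 1520, 4352 and 11988 among the genes tested. Per kilobase of merged exons the order was different, with Rn7sk at 16493 ± 1749 CPM per kb (SD, n = 9), Rmrp at 5452 ± 924, Gm26917 at 2898 ± 948 and Malat1 at 968 ± 222. H19 averaged 39.8 ± 52.6, Neat1 22.5 ± 3.88, Rpph1 13.5 ± 3.91, Meg3 2.18 ± 1.07 and Kcnq1ot1 1.22 ± 0.208 CPM per kb. Among neighbours in this order, the ranges over mice overlapped between Gm26917 and Malat1, H19 and Neat1, Neat1 and Rpph1, and Meg3 and Kcnq1ot1. The H19 range, 1.07 to 147 CPM per kb, also overlapped those of Rpph1, Meg3 and Kcnq1ot1. In Myh11-Cre 1 H19 lay below Meg3 (1.07 against 1.33 CPM per kb). Within a library, Gm26917 was above Malat1 and Meg3 above Kcnq1ot1 in all 9 mice, whereas neither H19 and Neat1 nor Neat1 and Rpph1 kept one order in every mouse. Rpph1 was thus below its relative Rmrp on both scales, and Kcnq1ot1, whose annotated transcript spans 93092 bases, was lowest per length in all 9 mice.

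**Figure D1:**
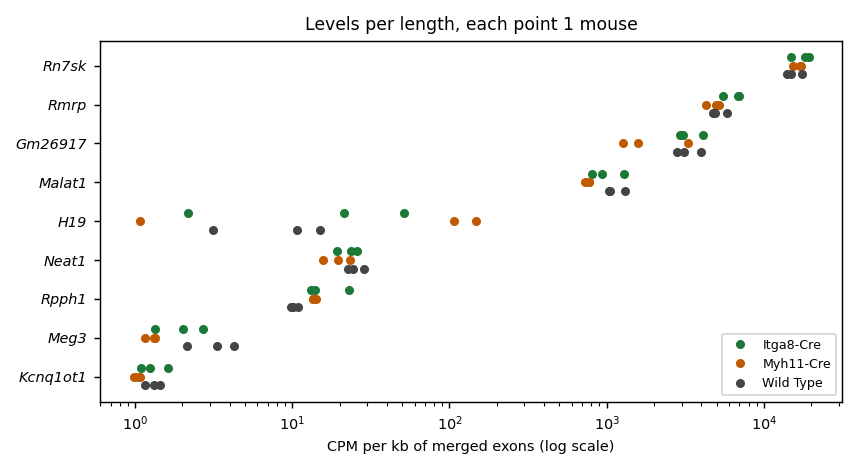
Level of each noncoding RNA per kilobase of merged exons (CPM per kb, log scale), with 1 point per mouse and genotypes offset within each row. Rn7sk lies between 14079 and 19285 CPM per kb and Kcnq1ot1 between 0.978 and 1.62, while H19 spreads from 1.07 to 147.

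Across the 9 mice Rn7sk was the least variable, with a root mean square deviation of 0.144 on the log2 scale, and H19 the most, with 2.34. The ratio of the highest to the lowest mouse was 1.37 for Rn7sk, 1.63 for Rmrp, 1.66 for Kcnq1ot1, 1.79 for Malat1 and 1.84 for Neat1. It was 2.34 for Rpph1, 3.22 for Gm26917, 3.69 for Meg3 and 138 for H19. The smallest differences among members were Malat1 with Neat1 (root mean square difference 0.162 in log2 CPM centred on each gene's mean over 9 mice), Malat1 with Kcnq1ot1 (0.165) and Rn7sk with Rmrp (0.175). Genes that vary little lie near each other by this measure. The deviations of Malat1, Neat1 and Kcnq1ot1 themselves were 0.303, 0.246 and 0.223, above those differences. That of Rn7sk was below its difference from Rmrp, so this pair is not read as a shared pattern.

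**Figure D2:**
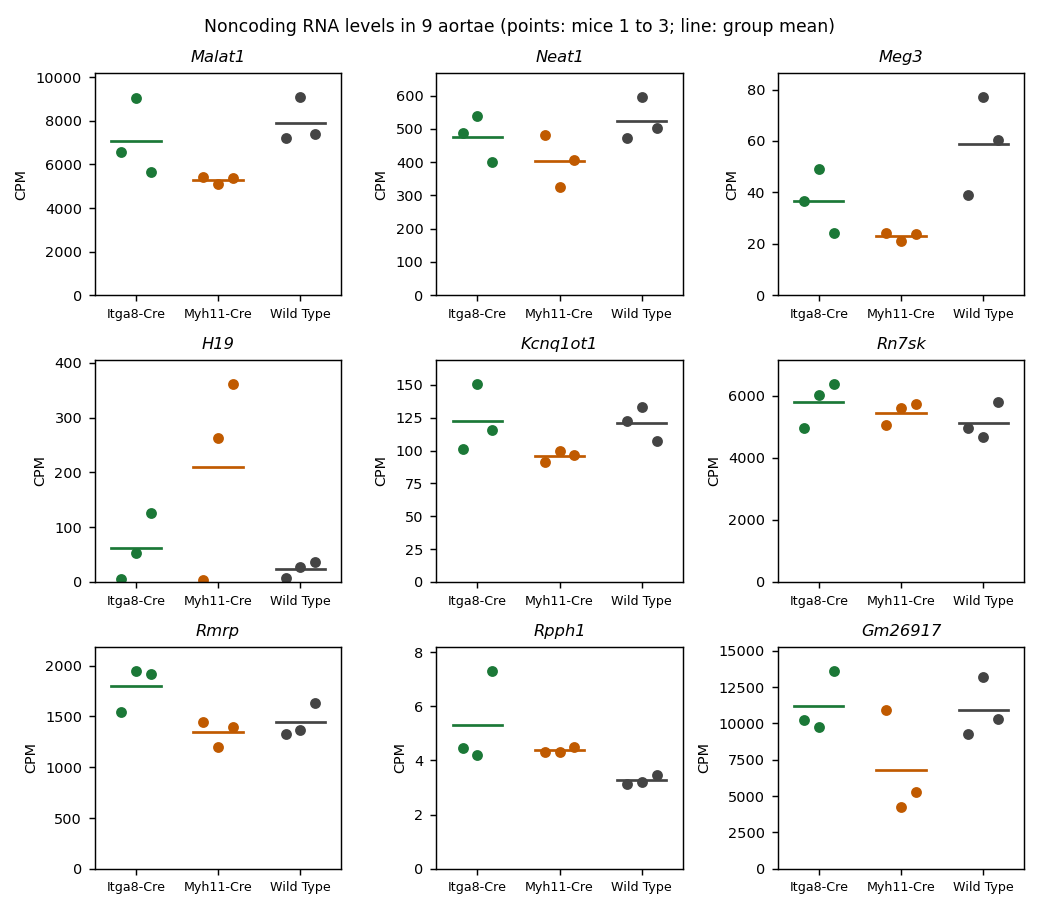
CPM of the 9 RNAs in each of 9 mice, on linear axes from 0, with a line at each group mean. Malat1, Meg3 and Kcnq1ot1 are lower in all 3 Myh11-Cre mice than in all 3 Wild Type mice, and Rpph1 is higher in both Cre lines.

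No member passed edgeR's test in any comparison. With an adjusted p under 0.05 over all genes as the call, 0.0% of tested genes were called in Itga8-Cre against Wild Type, 0.0% in Myh11-Cre against Wild Type and 0.0% in Itga8-Cre against Myh11-Cre. The smallest adjusted p of any gene was 0.494, 0.218 and 0.521 in these comparisons. At an unadjusted edgeR p under 0.05, 2 of 9 members passed in each of them, against 6.78%, 16.4% and 9.48% of all tested genes; limma voom called 0 members. DESeq2 called 0 members in Itga8-Cre against Wild Type, where it called 0.166% of genes, 2 (Malat1 and Meg3, both lower) in Myh11-Cre against Wild Type, where it called 4.44% (3.09% lower), and 0 in Itga8-Cre against Myh11-Cre, where it called 0.109%. Both comparisons with Wild Type use the same 3 control mice.

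Counted by separation of all 3 mice of 1 group from all 3 of the other, in Itga8-Cre against Wild Type 1 member lay higher and 0 lower, where 5.76% of genes were separated upward and 5.37% downward. In Myh11-Cre against Wild Type 1 lay higher and 3 lower, where 11.3% and 14.7% of genes did. In Itga8-Cre against Myh11-Cre 4 lay higher and 0 lower, where 9.65% and 3.07% did. The median log2 fold change of the 9 was 0.04, -0.33 and 0.35 in these comparisons, beside 0.036, 0.007 and 0.01 over all tested genes.

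**Figure D3:**
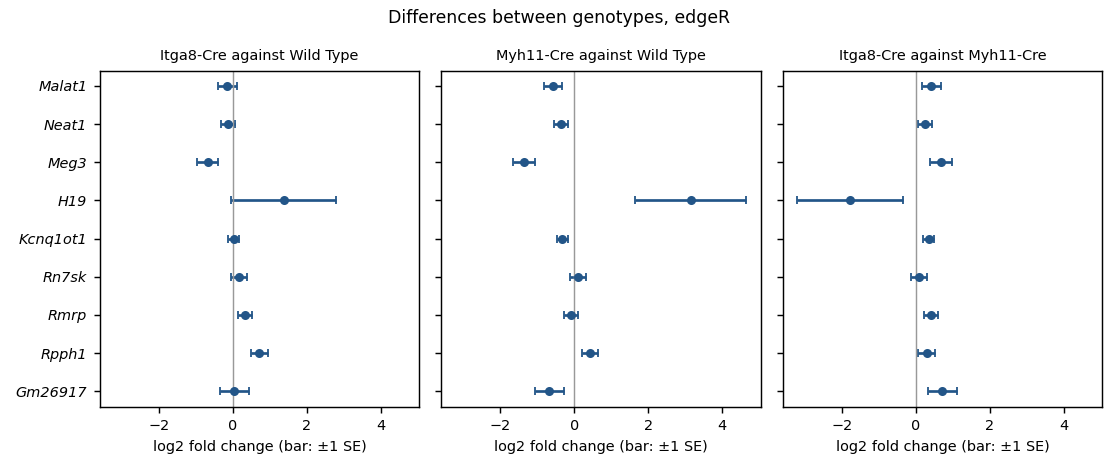
Log2 fold change of each RNA in the 3 comparisons, first-named genotype over the other, from edgeR, with bars of 1 SE. Meg3 has -1.36 in Myh11-Cre against Wild Type, and H19 has the widest bars, up to an SE of 1.51.

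Malat1 (chr19:5795690-5802672, minus strand, GRCm38, lincRNA) had 6570, 9065 and 5648 CPM in Itga8-Cre 1 to 3 and 5408, 5095 and 5377 CPM in Myh11-Cre 1 to 3, against 7201, 9103 and 7381 CPM in Wild Type 1 to 3. The 3 Myh11-Cre values lay together and below every other mouse, while Itga8-Cre overlapped Wild Type. Malat1 was thus 1.49-fold lower in Myh11-Cre than in Wild Type (log2 fold change -0.58, SE 0.25; adjusted p 0.304 by edgeR and 0.0463 by DESeq2). In Itga8-Cre against Wild Type the log2 fold change was -0.15 (SE 0.25, edgeR adjusted p 0.877), and in Itga8-Cre against Myh11-Cre 0.42 (SE 0.25, edgeR adjusted p 0.599).

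Neat1 (chr19:5824708-5845478, minus strand, lincRNA) lies 22.0 kb from Malat1. It had 488, 538 and 401 CPM in Itga8-Cre and 482, 324 and 406 CPM in Myh11-Cre, against 473, 596 and 502 CPM in Wild Type. Groups overlapped in every comparison: Myh11-Cre 1 was above Wild Type 1. The log2 fold change was -0.14 (SE 0.19) in Itga8-Cre against Wild Type and -0.37 (SE 0.19, edgeR adjusted p 0.361) in Myh11-Cre against Wild Type. Neat1 counts per Malat1 count averaged 0.0682 ± 0.00786 in Itga8-Cre and 0.0761 ± 0.0128 in Myh11-Cre, against 0.0664 ± 0.00143 in Wild Type (SD, n = 3 each), and these ratios overlapped between groups. The short and long forms of Neat1 cannot be told apart in a count per gene.

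The 3 genes closest to Malat1 in pattern over the 9 mice were Izumo4, at a root mean square difference of 0.088, Lncpint, a long noncoding RNA induced by p53, at 0.073, and Mir99ahg, a microRNA host gene, at 0.083. Lncpint had 35.7, 48.8 and 31.8 CPM in Itga8-Cre and 27.2, 27.0 and 29.0 CPM in Myh11-Cre, against 35.1, 47.3 and 42.8 CPM in Wild Type. Lncpint was chosen for nearness to Malat1 in these same mice, so its low values in the 3 Myh11-Cre mice follow from that choice. Closest to Neat1 were Ccnl2, a cyclin of nuclear speckles (0.088), Crocc, the rootletin gene (0.089), and Dot1l, the histone H3 lysine methyltransferase (0.094).

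Of 29 other long noncoding RNAs tested, 7 lay higher and 22 lower in Myh11-Cre than in Wild Type, 10 of them with groups apart downward, with a median log2 fold change of -0.23. DESeq2 called 3 of them lower, Miat (adjusted p 0.00233), Snhg11 (0.0111) and Lncpint (0.0447), and edgeR called none. Miat averaged 0.928 ± 0.476 CPM in Myh11-Cre against 3.61 ± 1.04 CPM in Wild Type (SD, n = 3 each). Over all genes 49.1% had a negative log2 fold change in this comparison, 14.7% had groups apart downward and DESeq2 called 3.09% lower. In Itga8-Cre against Myh11-Cre 24 lay higher and 5 lower, with a median of 0.25, and in Itga8-Cre against Wild Type 15 and 14, with a median of 0.03 (-0.01 with DESeq2 size factors).

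Genes of the bodies that these RNAs belong to were read from lists. Of 22 speckle protein genes, 18 lay lower and 4 higher in Myh11-Cre than in Wild Type, 9 with groups apart downward, and 0 passed edgeR or DESeq2. Those with the smallest p were the splicing kinase genes Clk4 and Clk1 and the splicing coactivator gene Srrm2, whose log2 fold changes were -0.33 (SE 0.10), -0.43 (SE 0.14) and -0.43 (SE 0.15). Of 20 paraspeckle protein genes, 11 lay lower and 9 higher (19 and 1 on total count scaling), 8 with groups apart downward. Over all tested genes, 49.1% lay lower and 14.7% had groups apart downward in this comparison. On total count scaling 12341 of all 19412 tested genes lay lower. In Itga8-Cre against Wild Type the speckle list had 12 higher and 10 lower and the paraspeckle list 13 higher and 7 lower.

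Meg3 (chr12:109541001-109571726, plus strand, lincRNA) is expressed from the maternal copy of the Dlk1-Dio3 domain. It had 36.7, 49.1 and 24.1 CPM in Itga8-Cre and 24.0, 20.9 and 23.9 CPM in Myh11-Cre, against 38.9, 77.1 and 60.2 CPM in Wild Type. Every Myh11-Cre mouse lay below every Wild Type and every Itga8-Cre mouse, with the gap to Itga8-Cre 3 under 1 CPM, and Itga8-Cre overlapped Wild Type. Meg3 was 2.56-fold lower in Myh11-Cre than in Wild Type (log2 fold change -1.36, SE 0.29; adjusted p 0.218 by edgeR and 0.00221 by DESeq2). The log2 fold change was -0.68 in Itga8-Cre against Wild Type (SE 0.29, edgeR adjusted p 0.699) and 0.68 in Itga8-Cre against Myh11-Cre (SE 0.29, edgeR adjusted p 0.521).

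Rian and Mirg, noncoding RNAs that host small nucleolar RNAs and microRNAs, follow Meg3 on the same strand of the domain, Rian 32.2 kb further on. Rian had 28.9, 43.5 and 24.3 CPM in Itga8-Cre and 18.5, 28.2 and 24.8 CPM in Myh11-Cre, against 32.7, 45.2 and 43.0 CPM in Wild Type. Mirg had 2.46, 2.96 and 1.92 CPM in Itga8-Cre and 1.64, 1.41 and 1.85 CPM in Myh11-Cre, against 2.84, 3.15 and 2.55 CPM in Wild Type. Both were separated downward in Myh11-Cre against Wild Type, by a log2 fold change of -0.76 (SE 0.24, adjusted p 0.232 by edgeR and 0.0698 by DESeq2) for Rian and -0.80 (SE 0.23, adjusted p 0.218 by edgeR and 0.0338 by DESeq2) for Mirg. Rian counts per Meg3 count averaged 1.05 ± 0.289 in Myh11-Cre against 0.714 ± 0.127 in Wild Type (SD, n = 3 each), with groups overlapping.

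Of the other genes of the domain, Begain, a synaptic protein gene, was also separated downward in Myh11-Cre against Wild Type (log2 fold change -0.85, SE 0.34, edgeR adjusted p 0.277). Wdr25 was not (0.09, SE 0.19). Dlk1, the paternally expressed membrane ligand, was low, at 0.265 to 0.754 CPM over the libraries. Its groups overlapped in Myh11-Cre against Wild Type (0.02, SE 0.35). They were apart downward in Itga8-Cre against Wild Type (-0.86, SE 0.37, edgeR adjusted p 0.699). Rtl1, Dio3 and Dio3os had too few counts to be tested.

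The Meg3 start is shown because Meg3, Rian and Mirg were all lower in Myh11-Cre. RefSeq gives 2 Meg3 starts on GRCm38.p6, and the upstream one, nearest the annotated gene start, is printed. Its window runs from 250 bases before to 50 after that start, chr12:109540746-109541045, plus strand, with motif matches in capitals.
Meg3 promoter: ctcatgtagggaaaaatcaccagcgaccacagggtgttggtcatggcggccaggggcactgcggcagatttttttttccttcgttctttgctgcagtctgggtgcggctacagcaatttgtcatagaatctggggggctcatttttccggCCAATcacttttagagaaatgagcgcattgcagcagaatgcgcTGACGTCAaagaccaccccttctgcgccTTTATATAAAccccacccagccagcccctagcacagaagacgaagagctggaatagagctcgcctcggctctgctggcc
Both strands were searched. TGACGTCA, the cAMP response element, occurs in 1.79% of 32851 promoter windows of this length, TATAAA in 13.6% and CCAAT in 37.4%; the TATAAA matches of both strands overlap here, and TGACG was searched too and lies within TGACGTCA. The window of the other Meg3 start, chr12:109545148-109545447, had 0 matches to any of these motifs. The RefSeq table held 3 of the 9 members, the others being Malat1 and Kcnq1ot1. The Kcnq1ot1 window had CCAAT 3 times and TGACG 1 time, and the Malat1 window had TGACG 3 times. TGACG was found in 20.8% of windows.

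Meg3 and H19 transcripts also contain microRNA hairpins. RefSeq places these mature microRNAs, with bases 2 to 8 (the seed) in capitals, within Meg3 and H19, and no seed was shared between them.
mmu-miR-770-5p, in Meg3: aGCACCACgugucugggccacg
mmu-miR-770-3p, in Meg3: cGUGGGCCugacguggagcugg
mmu-miR-1906, in Meg3: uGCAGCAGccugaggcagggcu
mmu-miR-675-5p, in H19: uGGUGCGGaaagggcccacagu
mmu-miR-675-3p, in H19: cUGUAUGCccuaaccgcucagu
The microRNA genes Mir770, Mir1906-1 and Mir675 had 0 counts in all 9 libraries, and mature microRNAs are not captured by this kind of library.

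Nerve transcripts were read beside Meg3, and their order of mice matched that of Meg3 within Itga8-Cre only. The 10 markers of neurons and Schwann cells, none at 0, summed to 447, 525 and 376 CPM in Itga8-Cre and 434, 296 and 249 CPM in Myh11-Cre, against 433, 610 and 770 CPM in Wild Type. In Myh11-Cre against Wild Type 8 of the 10 lay lower and 7 had groups apart downward, and DESeq2 called 6. Over all genes 14.7% had groups apart downward there, and DESeq2 called 4.44%. Th, the tyrosine hydroxylase of sympathetic nerves, had 45.5, 74.8 and 40.6 CPM in Itga8-Cre and 36.9, 21.4 and 9.09 CPM in Myh11-Cre, against 45.8, 92.4 and 126 CPM in Wild Type. The genes closest to Meg3 in pattern were Anks1b, a synaptic scaffold gene (root mean square difference 0.137), Xkr4 (0.152) and Ccdc92b (0.165). The part of nerve content in the Meg3 difference was not tested, and in whole tissue fewer cells of a type and less RNA per cell cannot be told apart.

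**Figure D4:**
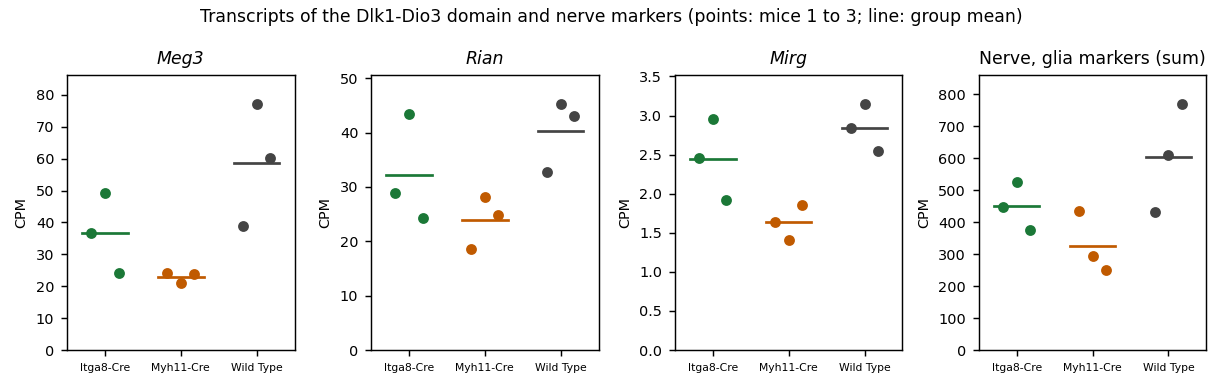
CPM of Meg3, Rian and Mirg and the summed CPM of 10 nerve and glia markers in each mouse, on linear axes from 0, with group means as lines. The 3 Myh11-Cre mice lie below all Wild Type mice for Meg3, Rian and Mirg, and the marker sum runs between 249 and 434 CPM in Myh11-Cre, against 433 to 770 CPM in Wild Type.

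H19 (chr7:142575529-142578143, minus strand, lincRNA), a maternally expressed RNA abundant in the fetus and retained in adult skeletal muscle, differed most between mice. It had 5.35, 52.5 and 126 CPM in Itga8-Cre and 2.63, 263 and 362 CPM in Myh11-Cre, against 7.71, 26.3 and 37.1 CPM in Wild Type. Both the lowest and the highest of all 9 values were in Myh11-Cre, and groups overlapped in every comparison. The log2 fold change was 3.14 in Myh11-Cre against Wild Type (SE 1.51, edgeR adjusted p 0.337) and 1.37 in Itga8-Cre against Wild Type (SE 1.42, edgeR adjusted p 0.803). It was -1.77 in Itga8-Cre against Myh11-Cre (SE 1.43, edgeR adjusted p 0.682). Single libraries moved these values. Itga8-Cre against Wild Type gave 0.26 without Itga8-Cre 3 and 1.91 without Itga8-Cre 1. Myh11-Cre against Wild Type gave 2.48 without Myh11-Cre 3 and up to 3.72 with another library left out. Itga8-Cre against Myh11-Cre gave -2.89 without Itga8-Cre 3 and -1.11 without Myh11-Cre 3. With a replicate block the values against Wild Type were 0.57 in Itga8-Cre and 2.03 in Myh11-Cre, and in limma voom they were 0.72 in Itga8-Cre and 1.65 in Myh11-Cre.

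Transcripts of skeletal muscle, which lies near the aorta, had the same order of mice within each group. The 12 markers, none at 0, summed to 170, 2229 and 7662 CPM in Itga8-Cre and 94.6, 11146 and 17518 CPM in Myh11-Cre, against 934, 1631 and 1993 CPM in Wild Type. H19 CPM per 1000 CPM of these markers lay between 16.5 and 31.4 in the 6 Cre mice and at 8.25, 16.1 and 18.6 in Wild Type. The highest of the 9 H19 values was 138-fold the lowest. The part of skeletal muscle content in the H19 differences was not tested.

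**Figure D5:**
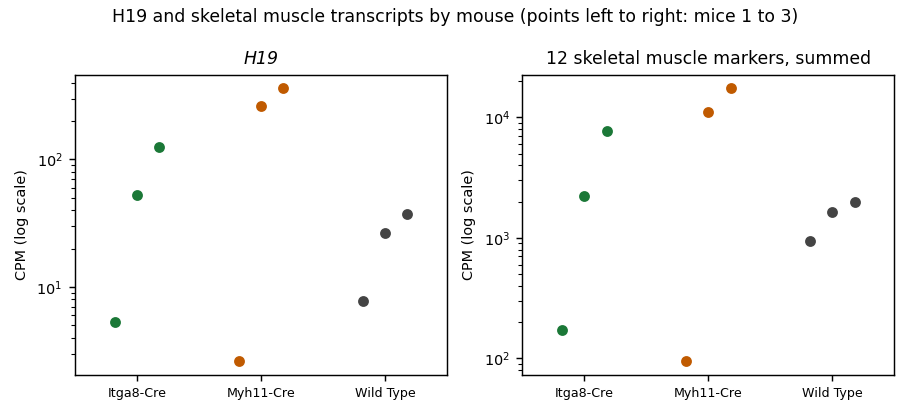
CPM of H19 and summed CPM of 12 skeletal muscle markers in each mouse, both on log axes, with mice 1 to 3 from left to right in each genotype. In both panels Myh11-Cre 1 is the lowest of the 9 mice (2.63 and 94.6 CPM) and Myh11-Cre 3 the highest (362 and 17518 CPM).

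The genes closest to H19 in pattern were Tnni1, the troponin I of slow skeletal muscle (root mean square difference 0.30), Cacng6, a calcium channel subunit gene of muscle (0.426), and Prr33 (0.428). Tnni1 had 0.400, 3.21 and 14.3 CPM in Itga8-Cre and 0.192, 22.5 and 37.3 CPM in Myh11-Cre, against 0.521, 3.46 and 3.44 CPM in Wild Type. Its likeness to H19 follows from the choice by nearness. In the domain itself Tnnt3 and Tnni2, the fast skeletal troponin genes, and the muscle noncoding RNA Nctc1 had log2 fold changes of 2.78, 2.91 and 2.09 in Myh11-Cre against Wild Type, each with groups overlapping. Igf2, the growth factor gene 72.6 kb from H19 that is silent on the copy where H19 is active, had 2 to 16 counts per library. Of 8 tested genes in the domain, 7 lay higher and 1, Th, lower in Myh11-Cre than in Wild Type. Ctsd, a lysosomal protease gene, had groups apart upward (0.45, SE 0.25, edgeR adjusted p 0.392), and Lsp1 and Mrpl23 had 0.09 and 0.00.

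Kcnq1ot1 (chr7:143203458-143296549, minus strand, annotated as antisense) runs inside Kcnq1, a potassium channel gene on the other strand, from the unmethylated paternal copy, and keeps its neighbours silent there. It had 101, 151 and 116 CPM in Itga8-Cre and 91.1, 100.03 and 96.9 CPM in Myh11-Cre, against 122, 133 and 107 CPM in Wild Type. The 3 Myh11-Cre mice lay below all others, with Itga8-Cre 1 next above them. The log2 fold change was -0.33 in Myh11-Cre against Wild Type (SE 0.15, edgeR adjusted p 0.324), 0.35 in Itga8-Cre against Myh11-Cre (SE 0.15, edgeR adjusted p 0.521) and 0.02 in Itga8-Cre against Wild Type (SE 0.15, edgeR adjusted p 0.976).

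Kcnq1 had 4.46, 9.49 and 6.13 CPM in Itga8-Cre and 5.17, 9.92 and 11.6 CPM in Myh11-Cre, against 3.91, 7.62 and 4.14 CPM in Wild Type. Kcnq1ot1 counts per Kcnq1 count averaged 19.2 ± 3.41 in Itga8-Cre and 12.02 ± 4.92 in Myh11-Cre, against 24.9 ± 6.96 in Wild Type (SD, n = 3 each), with groups overlapping. Of 11 tested neighbours, 7 lay higher and 4 lower in Myh11-Cre than in Wild Type (5 and 6 on total count scaling), and edgeR and DESeq2 called none. Nap1l4, a nucleosome assembly gene, and Cars, a tRNA synthetase gene, had groups apart upward (0.30, SE 0.11, and 0.14, SE 0.08), and Osbpl5, an oxysterol-binding gene, downward (-0.36, SE 0.14). Cdkn1c, the imprinted cell cycle inhibitor, had -0.04 (SE 0.18). The genes closest to Kcnq1ot1 in pattern were Prdm11 (0.073), Slc38a9, an amino acid transporter of lysosomes (0.078), and Fancc, a Fanconi anaemia gene (0.082).

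Rn7sk (chr9:78175303-78175633, minus strand, misc_RNA) had 4963, 6020 and 6383 CPM in Itga8-Cre and 5050, 5604 and 5721 CPM in Myh11-Cre, against 4945, 4660 and 5786 CPM in Wild Type. All groups overlapped. The log2 fold change was 0.17 in Itga8-Cre against Wild Type (SE 0.22) and 0.09 in Myh11-Cre against Wild Type (SE 0.22), and it was 0.08 in Itga8-Cre against Myh11-Cre (SE 0.22). Mammalian genomes hold many partial copies of this RNA, so its count is uncertain where reads match more than 1 place. Of 11 protein genes of the 7SK and P-TEFb complexes, 4 lay higher and 7 lower in Myh11-Cre than in Wild Type and none was called. Larp7, which stabilises 7SK, had 0.20 (SE 0.10). The genes closest to Rn7sk in pattern were Asb3 (0.055), Zfp277 (0.058) and Rpl13, a ribosomal protein gene (0.059).

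Rmrp (chr4:43492783-43493063, minus strand) had 1544, 1951 and 1919 CPM in Itga8-Cre and 1448, 1200 and 1400 CPM in Myh11-Cre, against 1326, 1367 and 1632 CPM in Wild Type. Every Itga8-Cre mouse lay above every Myh11-Cre mouse, by 1.34-fold on average (log2 fold change 0.42, SE 0.19, edgeR adjusted p 0.521). Itga8-Cre overlapped Wild Type, with a log2 fold change of 0.32 (SE 0.19, edgeR adjusted p 0.703), and Myh11-Cre against Wild Type had -0.10 (SE 0.19, edgeR adjusted p 0.810). Rmrp overlaps Ccdc107 on the opposite strand, which had 426 to 526 counts per library. The annotation also holds 2 Rmrp transcripts, of 271 and 281 bases, in separate gene records on the same strand. The sources used here do not say whether reads were assigned by strand or how reads within both records were counted.

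Rpph1 (chr14:50807449-50807767, minus strand, ribozyme) had 4.46, 4.20 and 7.31 CPM in Itga8-Cre and 4.30, 4.30 and 4.51 CPM in Myh11-Cre, against 3.13, 3.1995 and 3.46 CPM in Wild Type. These values rest on 156, 152 and 248 counts in Itga8-Cre and on 157, 177 and 173 counts in Myh11-Cre, against 108, 121 and 133 in Wild Type. All 6 Cre mice lay above all 3 Wild Type mice, and Itga8-Cre 3 stood above the rest. Rpph1 was 1.63-fold higher in Itga8-Cre than in Wild Type (log2 fold change 0.71, SE 0.23, edgeR adjusted p 0.699) and 1.34-fold higher in Myh11-Cre than in Wild Type (0.42, SE 0.22, edgeR adjusted p 0.376). Leaving out Itga8-Cre 3 gave 0.40 for Itga8-Cre against Wild Type. Rpph1 overlaps Ccnb1ip1 on the same strand, which is listed at 0 counts in every library. How reads within both genes were counted is not stated, so the level of Rpph1, also against Rmrp, is uncertain.

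Rmrp counts per Rpph1 count averaged 357 ± 101 in Itga8-Cre and 309 ± 29.2 in Myh11-Cre, against 441 ± 26.6 in Wild Type (SD, n = 3 each). The ratio was lower in every Myh11-Cre mouse than in every Wild Type mouse. Rn7sk counts per Rmrp count averaged 3.21 ± 0.120 in Itga8-Cre and 4.08 ± 0.592 in Myh11-Cre, against 3.56 ± 0.161 in Wild Type (SD, n = 3 each). The ratio was lower in every Itga8-Cre mouse than in the mice of either other genotype. Of 21 ratio comparisons these 3 had groups apart, each at p = 0.1 by exact permutation (two-sided), which is the lowest p that groups of 3 mice allow, and an adjusted p of 0.6.

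RNase P and RNase MRP share most of their proteins. Of 11 such genes, 9 lay higher and 2 lower in Myh11-Cre than in Wild Type, with a median log2 fold change of 0.17, and 8 and 3 in Itga8-Cre against Wild Type, with a median of 0.06; none was called. Rpp25l had groups apart upward in Myh11-Cre against Wild Type (0.35, SE 0.12, edgeR adjusted p 0.235). Of 20 genes for RNA polymerase III subunits, 5 lay higher and 15 lower in Myh11-Cre than in Wild Type, and 10 and 10 in Itga8-Cre against Wild Type. The gene patterns closest to Rmrp were Smap2 (0.046), Scarna2, a guide RNA of Cajal bodies (0.056), and Csk, a kinase that restrains Src (0.070). Scarna2 had 74.1, 91.3 and 99.2 CPM in Itga8-Cre and 68.1, 55.9 and 68.4 CPM in Myh11-Cre, against 65.4, 71.4 and 78.4 CPM in Wild Type. Its likeness to Rmrp likewise follows from the choice by nearness. Closest to Rpph1 were Cenpq, a centromere protein gene (0.135), Prrg4 (0.167) and Galnt7 (0.167).

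Other short structural RNAs were read beside them. Of 147 genes with small nucleolar or Cajal body RNA symbols, 33 were tested. In Myh11-Cre against Wild Type 2 lay higher and 31 lower, with a median log2 fold change of -0.26. Only 3 of the 33 had groups apart downward there, where 14.7% of all genes did. In Itga8-Cre against Myh11-Cre 27 lay higher and 6 lower, with a median of 0.43 and 7 with groups apart upward, and in Itga8-Cre against Wild Type 19 and 14, with a median of 0.16. Over all genes 9.65% had groups apart upward in Itga8-Cre against Myh11-Cre. None of the 33 was called by edgeR or DESeq2. Of 11 tested spliceosomal, telomerase and similar RNA genes, 3 lay higher and 8 lower in Myh11-Cre than in Wild Type, and 9 and 2 in Itga8-Cre against Wild Type. Terc, the RNA of telomerase, averaged 2.36 ± 0.831 CPM in Itga8-Cre against 1.33 ± 0.449 CPM in Wild Type (SD, n = 3 each; log2 fold change 0.82, SE 0.37, edgeR adjusted p 0.699).

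Gm26917 (chr17:39843013-39846341, plus strand, lincRNA) ends 11 bases before CT010467.1, annotated as ribosomal RNA on the opposite strand, and 616 bases before Gm42418, a lincRNA that overlaps CT010467.1. It had 10209, 9775 and 13630 CPM in Itga8-Cre and 10940, 4229 and 5256 CPM in Myh11-Cre, against 9302, 13206 and 10292 CPM in Wild Type. Myh11-Cre 2 and 3 lay below the 7 other mice, and Myh11-Cre 1 lay within the range of both other groups. The log2 fold change was -0.68 in Myh11-Cre against Wild Type (SE 0.39, edgeR adjusted p 0.396), 0.72 in Itga8-Cre against Myh11-Cre (SE 0.39, edgeR adjusted p 0.574) and 0.04 in Itga8-Cre against Wild Type (SE 0.39, edgeR adjusted p 0.986). Without Myh11-Cre 1 the first was -1.205.

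Gm42418 had 1524, 1881 and 2019 CPM in Itga8-Cre and 1995, 736 and 805 CPM in Myh11-Cre, against 1290, 2640 and 1616 CPM in Wild Type. It was lowest in the same pair of Myh11-Cre mice. Gm26917 counts per Gm42418 count averaged 6.21 ± 0.883 in Itga8-Cre and 5.92 ± 0.543 in Myh11-Cre, against 6.19 ± 1.11 in Wild Type (SD, n = 3 each), with groups overlapping. CT010467.1, looked up after its position was seen, had 305, 316 and 341 CPM in Itga8-Cre and 365, 278 and 235 CPM in Myh11-Cre, against 246, 340 and 314 CPM in Wild Type. Other genes of the ribosomal RNA list gave -0.40 (SE 0.23) for Lars2, -0.04 (SE 0.32) for mt-Rnr1 and -0.01 (SE 0.37) for mt-Rnr2 in Myh11-Cre against Wild Type, and AY036118 was at 0 counts in every library. The genes closest to Gm26917 in pattern were Snora57 (0.258), Acrbp (0.297) and Snora21 (0.303), 2 of them small nucleolar RNA genes.

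The 10 smooth muscle markers were read as a description of the tissue, and none was at 0 in any library. They summed to 1496, 2000 and 1979 CPM in Itga8-Cre and 1205, 3345 and 3599 CPM in Myh11-Cre, against 3758, 2438 and 2320 CPM in Wild Type. Markers of fat cells, skeletal muscle, fibroblasts and endothelium were not at 0 either, so their presence does not test identity. The fat cell markers summed to between 5182 and 12110 CPM, above the smooth muscle markers in every library. Itga8, the gene that the Itga8 line is tied to, had 54.1, 76.5 and 62.9 CPM in Itga8-Cre and 72.4, 298 and 300 CPM in Myh11-Cre, against 475, 147 and 196 CPM in Wild Type. Every Itga8-Cre mouse lay below every Wild Type mouse for Itga8, and likewise for Myh11 among the smooth muscle markers. Of these 10 markers, 9 lay lower and 1 higher in Itga8-Cre than in Wild Type. Groups were apart downward for 5 of them, against 5.37% of all genes, and edgeR and DESeq2 called none of the 10. Myh11 had 616, 745 and 649 CPM in Itga8-Cre and 460, 1045 and 1114 CPM in Myh11-Cre, against 1371, 1078 and 986 CPM in Wild Type. Myh11-Cre 1 thus had less Itga8, Myh11 and skeletal muscle RNA than Myh11-Cre 2 and 3, beside more Gm26917, and the part of tissue makeup in the Gm26917 difference was not tested.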

How the data were processed

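The deposited counts per gene, whole numbers made by the authors, were used for every test; the deposited size-factor-scaled table was not used. Per the labels' protocols, poly(A) RNA was taken with oligo-dT beads into TruSeq Stranded mRNA libraries and read as single-end 75 nt reads; per the submitters' processing notes GRCm38.p6 was the build and tools named were STAR 2.7.0f, DESeq2, fastp 0.20.0, Salmon 0.13.1, featureCounts and Subread 1.6.4.

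The analysis used edgeR 4.0.16 under R 4.3.3 (filterByExpr, TMM, robust quasi-likelihood over all 9 libraries, Benjamini-Hochberg over 19412 genes, threshold 0.05), with DESeq2 1.42.0 and limma 3.58.1 beside it. Fold changes are the first-named genotype over the other. The common biological coefficient of variation was 0.294. Pattern distances used log2(CPM + 0.1) among 13822 named genes with a mean of at least 1 CPM. Nearest genes were picked from these same mice, so their likeness to a member is no separate result. Ratios were compared by exact permutation, which cannot go below 0.1 here. Calls and ratios were tested on simulated data. The changes simulated for the calls were larger than those of most members, so the power to call differences of the members' sizes was not tested. P-values measure the spread between mice.

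Named genes are all members, genes of the imprinted domain and ribosomal RNA lists, up to 3 of each other list with the smallest p (some are not reported here), and the 3 nearest patterns. CT010467.1, Itga8, Myh11 and the histone cluster list, narrowed to cluster symbols, were chosen after values were seen. The members and lists were chosen with earlier results of these data known.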

Additional observations from a re-analysis of the deposited data

How the results depend on the processing

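Of 486 log2 fold changes of single members under other settings, 464 kept direction and call, 20 changed sign and 2 became calls (Malat1 and Meg3 under DESeq2). DESeq2 called 30 genes in Itga8-Cre against Wild Type, 828 in Myh11-Cre against Wild Type (2 of them members) and 19 in Itga8-Cre against Myh11-Cre, where edgeR called 0; the cause was not tested. In Myh11-Cre against Wild Type 1 gene was called under total count scaling, with no filter, with a replicate block and without the 3 libraries richest in skeletal muscle transcripts; in Itga8-Cre against Myh11-Cre 1 was called under the first and the last of these. Total count scaling moved the median log2 fold change of all genes to -0.11 in Myh11-Cre against Wild Type and 0.13 in Itga8-Cre against Myh11-Cre. Members with groups apart numbered 7 under it in Myh11-Cre against Wild Type, where 12341 of 19412 tested genes lay lower. The share of all genes with groups apart under this scaling is not given here, so the count has no reference.

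Leaving out 1 library at a time, edgeR called 0 to 0 members. Members with groups apart numbered 1 to 4 in Itga8-Cre against Wild Type (4 without Itga8-Cre 1), 4 to 7 in Myh11-Cre against Wild Type (7 without Myh11-Cre 1) and 4 to 6 in Itga8-Cre against Myh11-Cre; ratios with groups apart numbered 3 to 10 (10 without Myh11-Cre 1). With 1 library left out, groups separate more easily, and the matching shares over all genes are not given here. Values that changed sign in this way ran from -0.159 to 0.141 for Kcnq1ot1 and -0.139 to 0.187 for Gm26917 in Itga8-Cre against Wild Type, -0.149 to 0.004 for Rmrp in Myh11-Cre against Wild Type, and -0.011 to 0.182 for Rn7sk and -0.03 to 0.429 for Rpph1 in Itga8-Cre against Myh11-Cre.

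Kcnq1ot1 in Itga8-Cre against Wild Type was -0.008 with DESeq2 size factors, -0.002 on 2 groups only and -0.01 in DESeq2. Rn7sk in Myh11-Cre against Wild Type was -0.02 under total count scaling. Without the 3 libraries richest in skeletal muscle transcripts, a setting chosen after seeing the data, Myh11-Cre against Wild Type gave -3.17 for H19, -0.02 for Rn7sk, 0.009 for Rmrp and 0.003 for Gm26917. In that setting Itga8-Cre against Myh11-Cre gave 3.43 for H19, -0.001 for Rpph1 and -0.144 for Gm26917, and Itga8-Cre against Wild Type gave -0.14 for Gm26917; it leaves 1 Myh11-Cre mouse, assumed to vary like the others. The libraries left out were the 3 with the highest H19 and the Myh11-Cre mouse kept had the lowest, so the choice itself set the sign of the H19 values.

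Mouse numbers were not taken as pairs: residuals of libraries with the same number correlated at over 0.1 in 5 of 9 pairs (0.033 to 0.396), and 1 of the 18 other pairs did. The replicate block gave 1 call among all genes and 0 among members.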

Other observations

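Messenger RNAs of the histone clusters, most of which end in a stem-loop in place of a poly(A) tail, are another class seen in these oligo-dT libraries. In Itga8-Cre against Wild Type 58 of 58 tested lay higher, with a median log2 fold change of 1.38, and likewise 58 of 58 in Myh11-Cre against Wild Type, with a median of 1.20. In both comparisons 10 had groups apart upward and edgeR and DESeq2 called none. Over all genes 5.76% had groups apart upward in Itga8-Cre against Wild Type and 11.3% in Myh11-Cre against Wild Type. In Itga8-Cre against Myh11-Cre 52 lay higher and 6 lower, with a median of 0.18. The 10 cell cycle markers, none at 0, summed to 81.5, 140 and 425 CPM in Itga8-Cre and 328, 197 and 77.6 CPM in Myh11-Cre, against 95.7, 130 and 120 CPM in Wild Type. The 12 thymocyte markers summed to 131, 231 and 1365 CPM in Itga8-Cre and 819, 663 and 240 CPM in Myh11-Cre, against 257, 443 and 191 CPM in Wild Type. Their part in the histone values was not tested.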
